A study of Homo sapiens with 8 samples.

Results

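The IFIT and IFITM genes encode antiviral proteins whose transcription is raised by interferon. The 7 genes considered here are *IFIT1*, *IFIT2*, *IFIT3*, *IFIT5*, *IFITM1*, *IFITM2* and *IFITM3*. They were chosen by gene name from the expression table of each library, which makes 7 of the 60649 gene identifiers listed there. All 7 lay higher in both libraries of UF1hypo cells than in those of their HCT116 parent before any knockdown, with *IFITM1* 139-fold higher by mean TPM. How many of all genes did so was not counted. Of the 5 members that exceeded 1 TPM in HCT116 itself, 4 passed the test, as did 2.16% of all such genes in that direction. On knockdown of UHRF1 by a hairpin 5 of the 7 were called higher still in UF1hypo cells, where 7.39% of all genes tested were. They ran from 3.13-fold for *IFITM2* to 11.3-fold for *IFIT3*. In HCT116 cells the same knockdown gave no called change in any of the 7. In that comparison 0.0472% of all genes were called higher. *UHRF1* itself was not called in either line. TPM is a transcript level scaled for transcript length and for the total of the library, so it can be compared between genes.

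Polyadenylated RNA was sequenced from 4 groups of 2 libraries each. HCT116 is an established human colorectal carcinoma cell line with both copies of *UHRF1*, the gene for the reader protein that brings the maintenance DNA methyltransferase DNMT1 to newly copied DNA. UF1hypo is 1 clone of HCT116 in which exon 4 of 1 *UHRF1* allele was removed, so a difference between UF1hypo and HCT116 cannot be told apart from a difference between that clone and its parent. Either line had been given shScr, a control hairpin, or shUHRF1, which targets *UHRF1*, on a lentiviral vector, so the control groups had received a hairpin vector too. The paper lists 1 hairpin sequence against *UHRF1*. An effect of less UHRF1 therefore cannot be told apart from another effect of that hairpin. The labels do not say that the 2 libraries of a group came from separate cultures, and p-values therefore measure only the spread between these libraries, which may be technical.

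The families act at different steps of infection. IFIT proteins are cytoplasmic RNA-binding proteins built of tetratricopeptide repeats, and IFIT1 holds viral mRNA whose cap lacks the ribose methylation that marks the mRNA of the host. IFITM proteins are small membrane proteins that hinder fusion of viral envelopes with plasma membrane or endosomes. Both families are switched on through ISGF3, a transcription factor complex that binds a promoter element called the ISRE.

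The 4 IFIT members lay on chromosome 10 (GRCh38, GENCODE 44 annotation) within 137912 bases, chr10:89283694-89421605, all on the plus strand. From the start of the cluster came *IFIT2* (ENSG00000119922.11), *IFIT3* (ENSG00000119917.15), *IFIT1* (ENSG00000185745.10) and *IFIT5* (ENSG00000152778.10). The 3 IFITM members lay within 25821 bases of chromosome 11, chr11:303655-329475. *IFITM2* (ENSG00000185201.17) and *IFITM1* (ENSG00000185885.17) were on the plus strand and *IFITM3* (ENSG00000142089.17) was on the minus strand.

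The RefSeq promoter table (GRCh38.p14) held 5 of the 7 members, without *IFIT2* and *IFITM2*. In the 250 bases before each start site the core of the ISRE was searched on both strands as GAAA, any 2 bases and GAAA again, which reads TTTC, any 2 bases and TTTC when it lies on the opposite strand. All 5 matched members held the letters at least once, against 3.02% of the 35116 windows of the same length in the table. *IFIT1*, *IFIT5*, *IFITM3* and both start sites of *IFIT3* held them 2 times, where 0.225% of all windows held them 2 times or more, and *IFITM1* held them once. The 30 bases around each match are shown because these 5 members share the element, which the choice by name did not use, 5′ to 3′ on the strand of the gene, with the matched letters in capitals.
IFIT1, chr10:89392503-89392532, plus strand: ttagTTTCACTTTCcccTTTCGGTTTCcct
IFIT3 start site 1, chr10:89327831-89327860, plus strand: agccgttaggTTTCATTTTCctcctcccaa
IFIT3 start site 1, chr10:89327865-89327894, plus strand: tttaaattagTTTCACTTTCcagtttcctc
IFIT3 start site 2, chr10:89332425-89332454, plus strand: acagattctgTTTCAGTTTCccctcaagag
IFIT3 start site 2, chr10:89332468-89332497, plus strand: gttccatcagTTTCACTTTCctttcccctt
IFIT5, chr10:89414513-89414542, plus strand: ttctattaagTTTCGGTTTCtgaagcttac
IFIT5, chr10:89414538-89414567, plus strand: cttacgtttagTTTCGATTTCttaagtttc
IFITM1, chr11:313990-314019, plus strand: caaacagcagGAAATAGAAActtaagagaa
IFITM3, chr11:320885-320914, minus strand: agGAAAAGGAAActgttgaGAAACCGAAAc
The IFIT members carried the letters in the reverse sense and the IFITM members in the forward sense. In *IFIT1* the 2 matches lay 3 bases apart, at positions -116 to -107 and -103 to -94 from the start. In *IFIT5* they lay at -45 to -36 and -19 to -10, and both stretches reached into an exon that GENCODE 44 gives to *LIPA* on the opposite strand. One stretch of *IFIT3* and that of *IFITM1* reached into an exon of another annotated transcript of the same gene. CpG dinucleotides in the 250 bases numbered 14 in *IFIT5*, 5 and 1 at the start sites of *IFIT3*, 4 in *IFIT1*, 4 in *IFITM3* and 0 in *IFITM1*, against a median of 11 over all windows. A match describes the letters only and no binding was measured.

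Libraries held 5.42 to 7.83 gigabases of aligned sequence, as estimated from the coverage and FPKM columns, and the 10 highest genes took 7.89% to 14.1% of the TPM. *UHRF1* stood at 87.5 and 98.4 TPM with shScr and 31.7 and 32.7 with shUHRF1 in HCT116, and at 47.3 and 50.6 with shScr and 34.1 and 21.1 with shUHRF1 in UF1hypo, lower with the hairpin in both lines without overlap. Its log2 fold change was -1.50 in HCT116 (limma, Benjamini-Hochberg adjusted p = 0.0564) and -0.84 in UF1hypo (limma adjusted p = 0.0406). It was called in neither line, for its adjusted p in HCT116 and for the size of the change in UF1hypo. The epithelial genes *EPCAM*, *KRT8* and *CDX2* were present in every library and *VIL1* was at most 0.142 TPM. Of 13 leukocyte markers the summed level was 8.78 to 16.5 TPM in the HCT116 libraries, 44.4 to 45.7 in UF1hypo shScr and 84.4 to 118 in UF1hypo shUHRF1, of which *CD68*, a lysosomal protein gene, made 77.7 to 107 in the last group. The defining leukocyte gene *PTPRC* was at most 0.0728 TPM, *MS4A1* at most 0.180 and *FCGR3A* was listed at 0 in all 8 libraries, and *CD3D* reached 5.05. Fibroblast and endothelial markers summed to 21.3 to 66.1 TPM, nearly all of it *COL1A1*. The part of these genes in the results below was not tested.

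*IFIT1* stood at 1.50 and 1.63 TPM with shScr and 2.87 and 2.88 with shUHRF1 in HCT116, and at 61.5 and 54.8 with shScr and 163 and 361 with shUHRF1 in UF1hypo. The groups followed each other in that order with no overlap, and the last pair lay far apart. *IFIT3*, whose protein binds and stabilises IFIT1, stood at 0.474 and 0.816 TPM with shScr and 1.12 and 0.899 with shUHRF1 in HCT116, and at 16.1 and 14.0 with shScr and 136 and 203 with shUHRF1 in UF1hypo. *IFIT2*, whose protein joins the same complex, stood at 0.299 and 0.526, 1.01 and 0.591, 5.94 and 6.14, and 34.4 and 56.2 TPM in the same order of groups. Both genes were near the floor of the measurement in HCT116, where the summed coverage of all *IFIT2* transcripts was 0.699 to 3.46 reads deep and that of *IFIT3* was 1.11 to 3.84, so that small differences there rest on few reads.

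*IFIT5*, which encodes a protein that binds uncapped RNA ends bearing triphosphate, behaved less steeply. It stood at 11.9 and 9.79 TPM with shScr and 9.62 and 8.33 with shUHRF1 in HCT116, and at 25.7 and 19.4 with shScr and 29.9 and 65.8 with shUHRF1 in UF1hypo. It was thus the highest IFIT gene in both HCT116 groups, lay under *IFIT1* in UF1hypo shScr, and lay under *IFIT1* and *IFIT3* in UF1hypo shUHRF1. In replicate 1 of UF1hypo shUHRF1 it also lay under *IFIT2*, which was at 34.4 TPM.

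*IFITM1*, which encodes the member found mainly at the plasma membrane, stood at 2.16 and 2.38 TPM with shScr and at 1.34 and 2.20 with shUHRF1 in HCT116. In UF1hypo it stood at 283 and 350 TPM with shScr and at 2388 and 2069 with shUHRF1. The HCT116 groups overlapped and every other pair of groups was apart. *IFITM3*, which encodes an endosomal member known for restricting influenza virus, was the highest of the 7 genes in every library, at 403 and 419 TPM with shScr and 479 and 510 with shUHRF1 in HCT116, and at 1808 and 2163 with shScr and 4813 and 3197 with shUHRF1 in UF1hypo. *IFITM2*, whose protein is also endosomal, stood at 45.1 and 45.4, 49.7 and 55.7, 118 and 114, and 438 and 287 TPM in the same order, with no overlap between groups.

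Levels moved unequally, so the make-up of each family changed. Of the summed IFIT TPM, *IFIT5* made 80.3% with shScr and 65.7% with shUHRF1 in HCT116, then 22.0% and 8.92% in UF1hypo, as means of 2 libraries. *IFIT1* made 11.7%, 21.2%, 57.2% and 48.8%, and *IFIT3* made 4.87%, 7.36%, 14.8% and 33.5%. Of the summed IFITM TPM, *IFITM1* made 0.495%, 0.320%, 13.1% and 34.3%, while *IFITM3* made 89.6%, 90.1%, 82.1% and 60.3%. The 3 IFITM genes together summed to 451 and 467 TPM in HCT116 shScr and to 7639 and 5553 in UF1hypo shUHRF1, the latter 0.764% and 0.555% of all TPM in those libraries. The 4 IFIT genes summed to 14.1 and 12.8 TPM in HCT116 shScr and to 363 and 686 in UF1hypo shUHRF1. These shares are descriptions and were not tested.

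The level of the clone before knockdown was asked first, by setting UF1hypo shScr against HCT116 shScr. Genes counted as called had an adjusted p (limma on log2(TPM + 1), Benjamini-Hochberg over all protein-coding genes tested) under 0.05 and an absolute log2 fold change above 1. Log2 fold changes are on the log2(TPM + 1) scale, where a change at low TPM comes out too small. Of the 7 members 6 were called higher and 0 lower, where 2.59% of the 12856 genes tested were called higher, and the median log2 fold change of the members was 2.32 against -0.05 over all genes tested. In both UF1hypo libraries every one of the 7 lay above both HCT116 libraries, a pattern whose share over all genes was not counted. *IFIT2* and *IFIT3* were under the minimum of 1 TPM in HCT116 shScr and entered the test only through the UF1hypo libraries, so their calls add nothing to the count. Of the 5 members that HCT116 shScr itself carried past the minimum 4 were called higher, against 2.16% of 12432 such genes.

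The change was largest in *IFITM1*, with a log2 fold change of 6.59 (SE 0.203; limma, Benjamini-Hochberg adjusted p = 1.25e-06). *IFIT1* followed with 4.52 (SE 0.323; limma adjusted p = 0.000145), a 37.1-fold ratio of mean TPM. *IFIT3* rose by 3.29 and *IFIT2* by 2.32 on the log2 scale, 23.3-fold and 14.6-fold by mean TPM over an HCT116 level under 1 TPM. *IFITM3*, already at 411 TPM in HCT116 shScr, rose by 2.26 and *IFITM2* by 1.34. The call of *IFITM2* was lost without any one of the 4 libraries compared, at log2 fold changes of 1.31 to 1.37. *IFIT5* was not called, with a log2 fold change of 0.99 (95% interval 0.22 to 1.75; limma adjusted p = 0.155), and its mean TPM was 2.08-fold that of HCT116. With GC content and transcript length corrected for, its log2 fold change was 1.30 and it was called.

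Knockdown in the parent line HCT116 was compared next. No member was called, where 0.0472% of 12704 genes were called higher, and 0 members had an adjusted p under 0.05 or an unadjusted p under 0.05. *UHRF1* itself, at a log2 fold change of -1.50, was not called either (limma adjusted p = 0.0564). The fit called 9 genes in all, and a fit on only the 4 libraries of this comparison called 89. The absence of a call therefore does not show an absence of change. In 5 of the 7 both shUHRF1 libraries lay above both shScr libraries, a pattern shared by 20.1% of all genes tested, and *IFIT5* lay below. *IFIT1* had the largest difference on the log2(TPM + 1) scale, 0.60 (95% interval -0.14 to 1.33; limma adjusted p = 0.891), or 1.84-fold by mean TPM. It stayed under the fold threshold in all settings tried, and its adjusted p in limma was 0.0379 without UF1hypo shUHRF1 replicate 1 and 0.0426 without replicate 2, libraries that enter only through the shared estimate of spread. *IFITM1* had a log2 fold change of -0.26 (95% interval -0.72 to 0.20), an interval that ends far under its 2.81 in UF1hypo knockdown. By mean TPM *IFIT2* was 1.94-fold and *IFIT3* 1.56-fold, at levels near the floor. Both entered this test only because 1 shUHRF1 library each, at 1.01 and 1.12 TPM, passed the minimum of 1 TPM.

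The same knockdown in UF1hypo cells was then compared with UF1hypo shScr. Here 5 of the 7 members were called higher and 0 lower, where 7.39% of 13620 genes were called higher, and the median log2 fold change of the members was 2.04 against 0.04 over all genes tested. Both shUHRF1 libraries lay above both shScr libraries in all 7, a pattern whose share over all genes was not counted in this comparison. This comparison and that of the clone with its parent share the UF1hypo shScr libraries, on opposite sides.

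*IFIT3* changed most, with a log2 fold change of 3.38 (SE 0.248; limma, Benjamini-Hochberg adjusted p = 8.61e-05). *IFITM1* rose by 2.81 (SE 0.202; limma adjusted p = 7.51e-05) and *IFIT2* by 2.68 (SE 0.271; limma adjusted p = 0.000496). *IFIT1*, at 58.1 ± 4.78 TPM (SD, n = 2) before and 262 ± 140 (SD, n = 2) after knockdown, rose by 2.04 on the log2 scale (SE 0.327; limma adjusted p = 0.00481). *IFITM2* rose by 1.60 (SE 0.201; limma adjusted p = 0.00148). The 2 members left were near the fold threshold. *IFITM3* had a 2.02-fold ratio of mean TPM and a log2 fold change of 0.99 (95% interval 0.54 to 1.44; limma adjusted p = 0.0129). Its log2 fold change was 1.12 without UF1hypo shScr replicate 2. It was 1.28 without UF1hypo shUHRF1 replicate 2 but 0.69 without UF1hypo shUHRF1 replicate 1. *IFIT5* had 0.96 (95% interval 0.18 to 1.74; limma adjusted p = 0.105), and was called without UF1hypo shUHRF1 replicate 1 at 1.52 but had 0.41 without replicate 2. With 2 libraries a group an exact two-sided permutation test of 1 gene cannot go below p = 0.333, so single-gene statements rest on the spread that limma shares across genes.

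**Figure D1:**
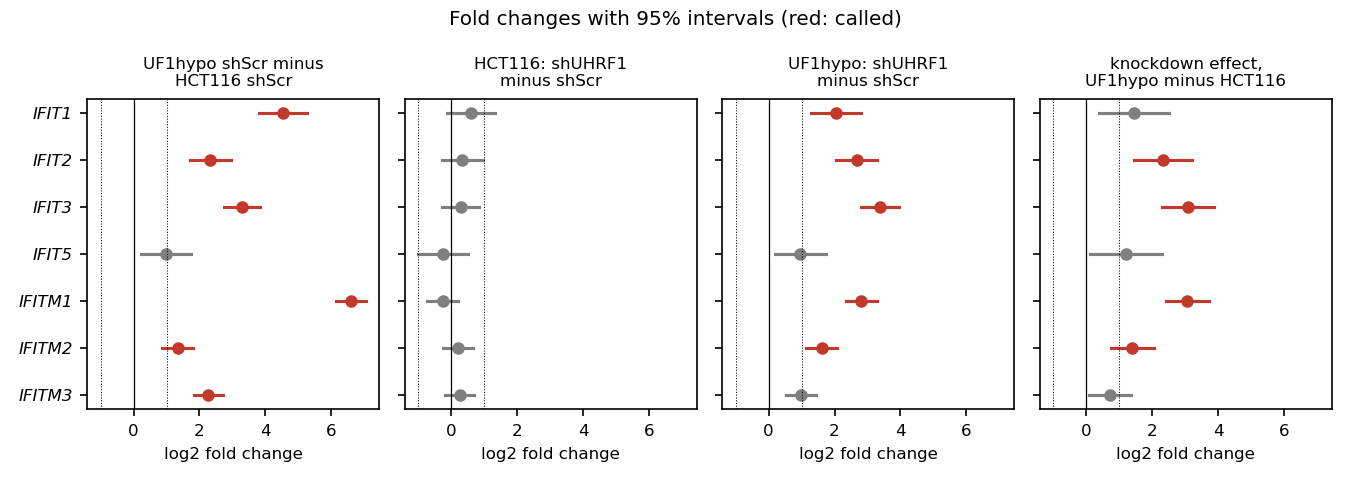
Log2 fold change on the log2(TPM + 1) scale of each gene in the 4 comparisons, with the 95% interval from limma as a bar, red where called, and dotted lines at the fold threshold of 1 in either direction. The 7 genes run from -0.26 to 0.60 in HCT116 knockdown and lie at 0.96 or above in UF1hypo knockdown, on a scale that makes changes at low TPM too small.

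Whether the knockdown effect differed between the lines was tested as the interaction of line and hairpin. Of the 7 members 4 were called higher in this difference, where 4.54% of 13781 genes were. The difference was 3.09 on the log2 scale for *IFIT3* (SE 0.350; limma, Benjamini-Hochberg adjusted p = 0.00227), 3.07 for *IFITM1* (SE 0.285; limma adjusted p = 0.000847), 2.33 for *IFIT2* (limma adjusted p = 0.0121) and 1.39 for *IFITM2* (limma adjusted p = 0.0295). For *IFIT2* and *IFIT3* the log2(TPM + 1) scale made the HCT116 change too small, 0.34 and 0.29 beside 1.94-fold and 1.56-fold by mean TPM. Their differences between the lines therefore came out too large. The calls of *IFIT2* and *IFITM2* did not hold without any one of the 6 libraries other than the UF1hypo shUHRF1 pair, which left *IFIT3* and *IFITM1*. *IFIT1* differed by 1.45 (95% interval 0.39 to 2.51; limma adjusted p = 0.130), *IFIT5* by 0.10 to 2.30 as the 95% interval (limma adjusted p = 0.225) and *IFITM3* by 0.72 (limma adjusted p = 0.205), none of them called.

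The 2 UF1hypo shUHRF1 libraries differed from each other in a way that ran through both families in opposite senses. Replicate 2 exceeded replicate 1 in all 4 IFIT genes, by 0.58 for *IFIT3* to 1.15 for *IFIT1* on the log2(TPM + 1) scale, and was below it in all 3 IFITM genes, by -0.21 for *IFITM1* to -0.61 for *IFITM2*. GC content moved with this gap. The canonical IFIT transcripts are 37.6% to 44.4% GC, and 3503 tested genes in that range had a median gap of 0.69, while the IFITM transcripts are 55.4% to 58.1% GC and 1225 genes in that range had a median gap of -0.33. A correction for GC content and length, fitted in all libraries, called 6 of the 7 members in UF1hypo knockdown, with *IFIT5* at 1.17 added, and 6 of the 7 in the difference between lines, with *IFIT1* and *IFIT5* added. In HCT116 it called 0 members.

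Genes around the clusters were measured to see whether the change extended beyond the families. Within 250000 bases of the IFIT cluster 2 of 5 other protein-coding genes were tested, and limma called 0 in any comparison, with 0 at an unadjusted p under 0.05. *LIPA*, a lysosomal lipase gene that overlaps *IFIT1*, *IFIT2* and *IFIT3* on the opposite strand, was at 27.7 ± 0.161 TPM in HCT116 shScr and 31.6 ± 2.84 in UF1hypo shScr (SD, n = 2 each), and its 2 UF1hypo shUHRF1 libraries were at 20.1 and 42.8. Whether reads were counted by strand is not given in the sources used here, and how far the counting separated these genes was not tested. The ratio of mean TPM on UF1hypo knockdown was 0.996 for *LIPA* beside 4.51 to 11.3 for the 3 IFIT genes it overlaps. Around the IFITM cluster 17 of 21 other genes were tested in UF1hypo knockdown. The 1 gene called was *IFITM5*, itself an IFITM gene, which passed the filter only through the shUHRF1 libraries. *PGGHG* had a log2 fold change of 0.91 (limma adjusted p = 0.0455) and missed only the fold threshold. Of the 17, 5 had an unadjusted p under 0.05, as did 3735 of the 13620 genes tested over the whole genome. Both shUHRF1 libraries lay above both shScr libraries in 7, a pattern not counted over all genes in this comparison. The log2 fold changes of the 17 ran from -0.43 to 2.20 with a median of 0.40. In the clone against its parent 16 were tested and limma called 0, with 4 at an unadjusted p under 0.05 and a median of 0.25. Of all 12856 genes tested there, 2341 had such a p.

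Other genes of the families were low. *IFITM5*, which is known as a bone gene, was listed at 0 in 6 libraries and stood at 4.67 and 2.71 TPM in UF1hypo shUHRF1, and it entered the test in UF1hypo knockdown only through these 2 libraries, so its call there is no more than a description of them. *IFIT1B* was listed at 0 in 6 libraries and stood at 0.0776 and 0.534 TPM in UF1hypo shUHRF1. *IFITM10* reached at most 1.57 TPM and was not called. The promoter windows of *IFIT1B* and *IFITM5* held 0 matches to the ISRE core. Of 14 pseudogenes 6 were listed at 0 everywhere, the highest value was 7.96 TPM for *IFITM3P2*, and they summed to at most 16.9 TPM in a library.

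Reads of near-identical genes can be split or misassigned. No stretch of 100 bases in the canonical transcripts of the IFIT members occurred in another gene. Of the stretches of *IFITM1*, 7.38% occurred in *IFITM3* and 46.4% in ENSG00000288681, a gene that spans *IFITM2* and *IFITM1* and was listed at 0.523 TPM at most. *IFITM3* shared 8.20% with *IFITM1*, and *IFITM2* shared 2.09% with ENSG00000288681, so the values of *IFITM1* and *IFITM3* carry some uncertainty from counting.

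The rest of the pathway was described by lists of its steps, none of which had a called gene in HCT116 knockdown by limma. There 4 of 17 of the other interferon-stimulated genes below and 1 of 9 receptor and JAK-STAT genes had an unadjusted p under 0.05. Over all genes tested 810 of 12704 did. Sensors of foreign nucleic acid had 4 of 9 tested genes called higher in UF1hypo knockdown, where 7.39% of all genes tested were. These were *DHX58* at a log2 fold change of 3.47, *IRF7* at 1.84, *IFIH1* at 1.59 and *RIGI* at 1.54. *DHX58*, *IFIH1* and *RIGI* encode the cytoplasmic helicases that recognise viral RNA. In the clone against its parent 5 of 9 were called higher, these 4 and *STING1*, where 2.59% of all genes tested were. On UF1hypo knockdown *STING1* went down, with a log2 fold change of -0.99 (limma adjusted p = 0.0172). Both its shUHRF1 libraries lay below both shScr libraries, and it missed only the fold threshold. The median over the list was 0.76 in knockdown and 1.37 in the clone.

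Interferon genes themselves were scarce. Of 21 genes for type I, II and III interferons 4 passed the filter in UF1hypo knockdown and all 4 of those were called higher, but each passed only through the shUHRF1 libraries, so no share of the list is read from that. *IFNL1*, a type III interferon, stood at 0.627 and 0 TPM with shScr and at 14.0 and 9.55 with shUHRF1 in UF1hypo. *IFNL3* stood at 0 and 0.112 and then at 10.3 and 4.65 TPM, and *IFNL2* at 0.774 and 0 and then at 4.76 and 1.88, although these near-identical genes may exchange reads. *IFNE*, a type I interferon of epithelia, stood at 0.366 and 0.239 and then at 1.56 and 5.54 TPM. *IFNB1*, a type I interferon made by many cell types, reached 0.385 TPM at most. In UF1hypo shScr no interferon gene exceeded 1 TPM in either library. In that group 4 of the 5 members that HCT116 shScr carried past 1 TPM were called higher than in HCT116 shScr. Whether interferon had a part in this was not tested.

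Genes of the interferon receptors and of JAK-STAT signalling had 2 of 9 called higher in UF1hypo knockdown, where 7.39% of all genes tested were. These were *IRF9* at a log2 fold change of 1.73 and *STAT2* at 1.18. Both encode subunits of ISGF3. In the clone against its parent *IRF9* was called higher at 2.78 and *STAT2* at 1.08. *IRF9* was at 3.46 and 4.07 TPM in HCT116 shScr, then in UF1hypo at 30.9 and 32.5 with shScr and 109 and 106 with shUHRF1, with no overlap between these groups. Of 3 feedback inhibitors *USP18*, which dampens the type I receptor, and *SOCS1*, which blocks JAK kinases, were called higher in UF1hypo knockdown, and *USP18* in the clone.

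Among 27 other interferon-stimulated genes 21 were called higher in UF1hypo knockdown and 22 of the 25 tested in the clone, with 0 lower in both. Of these, 2 in knockdown and 9 in the clone had entered only through the group in which they were high. Of genes that the control group itself carried past 1 TPM, 19 of 25 were called higher in knockdown, against 4.48% of 12593 such genes, and 13 of 15 in the clone, against 2.16% of 12432. *MX1*, a dynamin-like antiviral GTPase, stood at 0.308 and 0.435 TPM in HCT116 shScr, then in UF1hypo at 4.22 and 4.49 with shScr and 637 and 595 with shUHRF1, a log2 fold change of 6.85 on knockdown. *OAS2*, *XAF1* and *BST2* followed at 5.10, 4.44 and 4.28. In the difference between lines 15 of 27 were called higher, where 4.54% of 13781 genes were. Among them *MX1*, *MX2*, *OAS1*, *OAS2*, *IFI44*, *IFI44L*, *RSAD2*, *EPSTI1* and *XAF1* were under 1 TPM in every HCT116 library. These entered only through the UF1hypo libraries, so no share of the list is read from that count.

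Cellular genes linked to the action of the proteins had no call. The 4 genes of cap formation and methylation, the RNA feature that IFIT1 reads, had 0 called by limma in all 4 comparisons, with an unadjusted p under 0.05 for 1 gene in UF1hypo knockdown, 1 in the difference between lines and 2 in the clone. *CMTR1*, the nuclear cap ribose methyltransferase, had a log2 fold change of 0.84 in UF1hypo knockdown (limma, Benjamini-Hochberg adjusted p = 0.00762) and 0.95 in the difference (limma adjusted p = 0.041), and missed only the fold threshold. *RNMT*, the cap guanine methyltransferase, had -0.86 in the clone (limma adjusted p = 0.117). The 5 genes for enzymes that modify IFITM proteins and for the IFITM partner VAPA also had 0 called in all 4 comparisons, with an unadjusted p under 0.05 for 1 in HCT116 knockdown and 2 in the clone. Over all genes tested such a p was found for 810 of 12704 in HCT116 knockdown and 3735 of 13620 in UF1hypo knockdown. It was found for 2549 of 13781 in the difference and 2341 of 12856 in the clone. *ZDHHC20*, which encodes a palmitoyltransferase that acts on IFITM3, stood in HCT116 at 54.6 and 50.3 TPM with shScr and 24.7 and 21.4 with shUHRF1, a log2 fold change of -1.15 (limma adjusted p = 0.574). In UF1hypo it had -0.86, with shScr at 43.3 and 33.4 TPM and shUHRF1 at 11.5 and 35.6, which overlap.

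Members followed each other closely over the 8 libraries, with Pearson's r of log2(TPM + 1) from 0.875 to 0.998 over pairs of members. Outside the families the genes most like the mean of the IFIT members, of 13774 compared, were *LAMP3* (r = 0.999), *PER3* (0.997), *MAGEA9* (0.996), *CMPK2* (0.995) and *LAP3* (0.995). Those most like the mean of the IFITM members were *KRT13* (0.999), *PSMB9* (0.998), *TAPBP* (0.998), *OAS3* (0.998) and *ISG15* (0.997). The 8 libraries form 4 groups, so these values describe mainly the order of the group means. In bulk RNA a change in the share of cells that express a gene and a change in RNA per cell cannot be told apart, for the members or for any gene named here.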

How the data were processed

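Reads were trimmed (Fastp), mapped on GRCh38 by HISAT2 2.0.4 and summarised per gene by StringTie 2.1.4 by the authors, as the methods and the submitters' processing notes state. The deposited tables give TPM, FPKM and per-base coverage (a signal) for each of 60649 gene identifiers per library, and no counts. Records that share an identifier were summed. Protein-coding genes (GENCODE 44) with TPM above 1 in at least 1 library of a comparison were tested. The study's count-based test could not be used on TPM, so limma 3.58.1 (R 4.3.3) was fitted to log2(TPM + 1), pseudocount 1, over all 8 libraries with 4 group means, 4 residual degrees of freedom, moderated variances with a trend and Benjamini-Hochberg adjustment. The fit was tested on simulated data. FPKM and coverage served to estimate aligned bases, from genes with 1 annotated transcript. The depth behind a single gene's TPM is otherwise unknown, and no counting interval is given.

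Members and gene lists were chosen with earlier results of these data known. Of each list up to 4 genes with the largest absolute change in UF1hypo knockdown were named, with others called in the comparison described. The labels do not say that replicate numbers pair samples, and the numbers were not used as pairs in the main fit. Deviations of same-numbered libraries correlated at -0.40 to 0.05, with -0.40 between the UF1hypo groups. Such values cannot exclude a shared batch. Alternatives were another pseudocount, FPKM, other scalings and filters, library weights, GC and length correction, a replicate block, fits on 4 libraries and leaving out each library. An item of the lists is not reported here.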

Additional observations from a re-analysis of the deposited data

Results flagged for a closer look

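In 4 members the knockdown effect was not the same in both lines by the test of the interaction in limma with Benjamini-Hochberg adjustment. The difference on the log2(TPM + 1) scale was 3.09 for *IFIT3*, 3.07 for *IFITM1*, 2.33 for *IFIT2* and 1.39 for *IFITM2*, in each case with the larger change in UF1hypo. Those of *IFIT2* and *IFIT3* came out too large on this scale, because both were near the floor in HCT116. In HCT116 both shUHRF1 libraries of *IFIT2*, *IFIT3* and *IFITM2* also lay above both shScr libraries, and those of *IFITM1* overlapped them. Over all genes tested 4.54% were called higher in this difference. The calls of *IFIT2* and *IFITM2* were lost without any one of the 6 libraries other than the UF1hypo shUHRF1 pair, which takes the count from 4 to 2.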

How the results depend on the processing

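Of 551 values of single members under the alternatives, 517 kept their direction and their side of the threshold, 15 became called, 19 lost a call and none changed direction after being called. In UF1hypo knockdown the number of members called was 5 to 6 when 1 library was left out, and in the difference between lines it was 2 to 6. It was 2 without either library of HCT116 shScr, HCT116 shUHRF1 or UF1hypo shScr, 6 without UF1hypo shUHRF1 replicate 1 and 5 without replicate 2. With 1 library left out the lone library of its group is assumed to vary like the other groups.

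The replicate block called 0 members in HCT116 knockdown, 5 in UF1hypo knockdown, 3 in the difference between lines and 6 in the clone against its parent. Under the block *IFITM2* lost its call in the difference, at an unchanged 1.39 (limma adjusted p = 0.0526), and no other call of a member changed. The labels do not say that replicate numbers pair the libraries, so whether the block is apt is not known. *IFITM2* also lost that call with median-ratio scaling at 1.33, and *IFIT2* lost it with a pseudocount of 0.1 at 2.04. *IFITM3* was called in UF1hypo knockdown with quantile normalization at 1.13. In the difference it had 1.02 without UF1hypo shUHRF1 replicate 2 and 0.43 without replicate 1. The GC and length correction called 0, 6, 6 and 7 members in the 4 comparisons in the order above. Over all genes the number called ran from 0 to 101 in HCT116 knockdown (9 in the fit reported), 539 to 2255 in UF1hypo knockdown (1162), 171 to 2142 in the difference (702) and 149 to 598 in the clone (455), with 2255 and 2142 both found without UF1hypo shUHRF1 replicate 2. Quantile normalization called 681 of 970 genes higher in UF1hypo knockdown, against 1007 of 1162, and moved the median of all genes in the difference from 0.08 to -0.06. The causes were not tested.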
